A study of Mus musculus with 10 samples.

Results

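The transcripts described are 7 rows of a table of 55573 mouse genes: the noncoding models Gm42418, Mir6236, Gm15564, Gm23935, Gm24270 and AY036118, and the protein-coding gene Lars2. They were taken by gene name as models in which reads of ribosomal RNA may be counted, and they were selected on their level, since several had been seen to be higher in libraries from neurons without Cdk7. Of the 7 rows, 6 had counts in every library and passed the filter on low counts, and AY036118 had 0 counts in all 10 libraries.

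RNA was sequenced from projection neurons of the mouse cortex, on postnatal day 3, after flow cytometry had sorted the cells that carried a yellow fluorescent protein. All 10 pups carried NexCre/+, in which the Neurod6 gene (also called Nex) drives Cre in excitatory neurons of the forebrain, and R26EYFP/+, the reporter that Cre switches on. The 5 Ctrl pups had the Cdk7+/+ genotype and the 5 Cdk7_KO pups Cdk7lox/lox, with 1 preparation of sorted cells and 1 library per pup. Cdk7 is the kinase of the general transcription factor TFIIH, and the design asks how its loss changes RNA in these neurons. The libraries were made from polyadenylated RNA with a kit that keeps the strand, but the strand setting used for counting is not given in the sources used here.

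Levels are given as CPM, the count of a gene divided by the library total and multiplied by 1000000. Cdk7 RNA averaged 15.7 ± 4.0 CPM (SD, n = 5) over the Ctrl libraries and 5.16 ± 1.3 CPM (SD, n = 5) over those of Cdk7_KO, and the groups did not overlap. The deletion depends on NexCre, and which cells of the sort kept the gene was not examined. Total counts lay between 23497621 and 31233466 per library. Xist RNA separated the libraries numbered 1 to 3 (0 to 0.405 CPM) from those numbered 4 to 6 (253 to 781 CPM), so sex and replicate number go together: 2 Ctrl and 3 Cdk7_KO libraries are in the first set, 3 Ctrl and 2 Cdk7_KO libraries in the second.

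Cytosolic ribosomal RNA is transcribed by RNA polymerase I from tandem repeats as a long precursor, which is then cut, modified and assembled into ribosome subunits in the nucleolus. It makes up most of the RNA of a cell but has no long poly(A) tail, so selection of polyadenylated RNA removes most of it and the rest depends on how well that step worked. Stretches that resemble ribosomal RNA also lie elsewhere in the genome, inside other annotated genes, and reads of ribosomal RNA can be assigned to them.

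The sequences below are those that the models share with each other, as they bear on whether the same reads could be counted under more than 1 name. All coordinates are on GRCm38, and sequences run 5′ to 3′ on the strand of the model. Gm23935, at chr16:11144125-11144181 on the plus strand, and Gm24270, at chr9:56223715-56223771 on the minus strand, are both annotated as microRNA genes of 57 bases, and all 57 bases were the same. Gm24187, a model of the same kind at chr13:9834469-9834525 on the minus strand, differed from them at 1 base, G11A counted from the 5′ end, printed as a capital in the following lines.
Gm23935: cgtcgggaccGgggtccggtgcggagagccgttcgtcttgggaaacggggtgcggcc
Gm24270: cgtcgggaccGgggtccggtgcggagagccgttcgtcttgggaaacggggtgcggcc
Gm24187: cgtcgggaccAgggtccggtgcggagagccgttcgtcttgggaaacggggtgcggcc

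Gm15564 and Lars2 share a shorter stretch. The last base of exon 1 and all of exon 2 (chr16:35981725-35981795, minus strand) of a Gm15564 transcript aligned with the 3′ UTR of Lars2 at chr9:123462048-123462119 on the plus strand, with 1 mismatch over 72 aligned bases (98.6% identity). The 30 bases around the mismatch are shown with the differing base in capitals, T16A counted from the 5′ end of the lines and read from Gm15564 to Lars2.
Gm15564 stretch: ggaacgtgagctgggTttagaccgtcgtga
Lars2 stretch: ggaacgtgagctgggAttagaccgtcgtga

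Mir6236, annotated as a microRNA gene, overlaps no other annotated gene. No other annotated transcript held a run of at least 50 bases with at least 95% identity to Mir6236. The match of any of these models to the ribosomal RNA repeat itself was not examined, because no sequence of the repeat was used here.

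The most abundant member was Gm42418 (ENSMUSG00000098178), a long noncoding RNA model of 1831 bases at chr17:39846958-39848788 on the plus strand. RefSeq lists Gm42418 as a synonym of Rn18s-rs5, a pseudogene named for its relation to the RNA of the small ribosomal subunit, at chr17:39846354-39848202. AY036118 (ENSMUSG00000105361) is annotated by GENCODE at chr17:39847113-39848035 on the opposite strand, and all of its 923 bases are the complement of Gm42418. RefSeq places the symbol AY036118 elsewhere, at chr17:39848112-39898385, but the counted identifier is the GENCODE one. CT010467.1, an annotated ribosomal RNA at chr17:39846353-39848827, also lies on the opposite strand and is complementary to Gm42418 over 1244 bases. Gm26917, a long noncoding RNA model at chr17:39843013-39846341, ends 616 bases before Gm42418 starts, on the same strand.

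**Figure D1:**
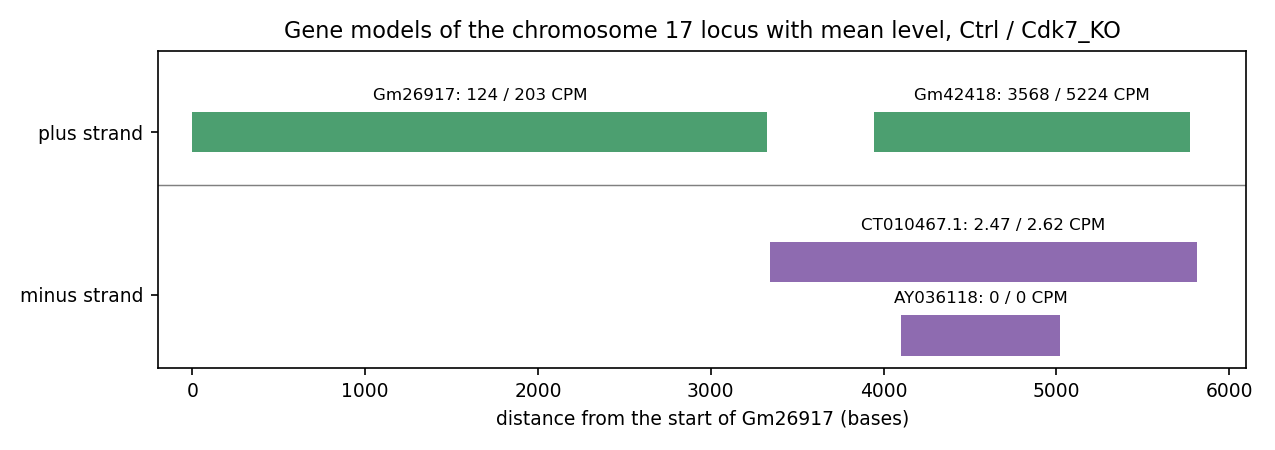
Gene models of the chromosome 17 locus by distance in bases from the start of Gm26917, with the plus strand above and the minus strand below; the labels give mean CPM over the 5 Ctrl and over the 5 Cdk7_KO libraries. The overlapping models of the minus strand were at 0 CPM (AY036118) and between 2.07 and 2.81 CPM (CT010467.1) while Gm42418 was at 2239 CPM or more. These 2 models share bases, and how reads shared by 2 genes were counted is not known.

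Gm42418 was at 2239, 3578, 4902, 3650 and 3472 CPM in Ctrl libraries 1, 3, 4, 5 and 6, and at 5639, 4107, 3985, 6115 and 6273 CPM in Cdk7_KO libraries 1 to 5. Ctrl 1 was lowest and Ctrl 4 lay above Cdk7_KO 2 and Cdk7_KO 3, so that the genotypes overlapped. The Ctrl mean was 3568 ± 944 CPM (SD, n = 5) and the Cdk7_KO mean 5224 ± 1101 CPM (SD, n = 5), a log2 difference of 0.61 (SE 0.19). The model alone held 78.4 to 82.8% of the counts of the 7 rows, and the 7 rows together took 0.285 to 0.592% of all counts in Ctrl and 0.504 to 0.789% in Cdk7_KO.

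On the strand opposite Gm42418, AY036118 had 0 counts in each library. All of its 923 bases also belong to CT010467.1 on the same strand, so its 0 sets no limit on its level without knowing how reads shared by 2 genes were counted. CT010467.1 had 50 to 87 counts per library and averaged 2.47 ± 0.350 CPM (SD, n = 5) over the Ctrl libraries and 2.62 ± 0.163 CPM (SD, n = 5) over the others. The same limit applies to these values, since reads of the shared bases may not have been counted.

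Gm23935 was at 303, 451, 527, 401.98 and 477 CPM in Ctrl 1, 3, 4, 5 and 6 and at 639, 605, 565, 845 and 940 CPM in Cdk7_KO 1 to 5. Every Cdk7_KO library lay above every Ctrl library, with means of 432 ± 85.0 CPM (SD, n = 5) and 719 ± 164 CPM (SD, n = 5) and a log2 difference of 0.79 (SE 0.17). The model lies opposite Zc3h7a, outside its exons. Gm24270, inside Peak1 on the same strand and also outside its exons, was at 25.2, 29.01, 35.7, 27.8 and 30.6 CPM in Ctrl and at 45.9, 40.1, 35.9, 54.4 and 56.4 CPM in Cdk7_KO, in the same library order. Its groups nearly met, at Ctrl 4 and Cdk7_KO 3, and its log2 difference was 0.71 (SE 0.14).

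Although Gm23935 and Gm24270 have the same 57 bases, the first had 12.1 to 16.6 times the counts of the second. How the counting treated reads that match several places is not given in the sources used here. Gm24245, a further model with the same 57 bases on chromosome 4, had 0 to 3 counts per library. The near copy Gm24187 was at 2.94, 6.95, 8.11, 6.61 and 5.55 CPM in Ctrl and at 10.1, 5.47, 7.17, 10.1 and 11.4 CPM in Cdk7_KO, and its groups overlapped. Gm25911 on chromosome 1, which is 96.5% identical, had 0 to 45 counts. Counts of these near-identical copies are uncertain, since reads could be split between them.

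Lars2 encodes the mitochondrial leucyl-tRNA synthetase, the enzyme that charges the tRNA for leucine in mitochondria, and lies at chr9:123366927-123462666 on the plus strand. It was at 261.5, 368.5, 413.7, 335.6 and 353.1 CPM in Ctrl 1, 3, 4, 5 and 6 and at 464.7, 415.1, 410.9, 558.2 and 558.6 CPM in Cdk7_KO 1 to 5. Ctrl 1 was again lowest, and Ctrl 4 lay just above Cdk7_KO 3, so the groups overlapped at these 2 libraries. The log2 difference was 0.53 (SE 0.13).

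Mir6236 was at 21.7, 31.9, 34.2, 28.1 and 32.5 CPM in Ctrl and at 38.1, 35.2, 38.9, 48.1 and 55.2 CPM in Cdk7_KO, in the same library order, a log2 difference of 0.59 (SE 0.15). The groups did not overlap, and Cdk7_KO 4 and Cdk7_KO 5 were highest. The span of Gm15564 (chr16:35966752-35983230), introns included, overlaps exons of Kpna1 and Parp9 on the opposite strand. Gm15564 was the least abundant of the counted members. It was at 4.04, 5.28, 6.70, 4.84 and 5.03 CPM in Ctrl and at 7.79, 8.01, 8.997, 9.29 and 10.9 CPM in Cdk7_KO, without overlap and with a log2 difference of 0.85 (SE 0.17). It had 95 to 264 counts per library, so counting error weighs more on it than on the other members.

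**Figure D2:**
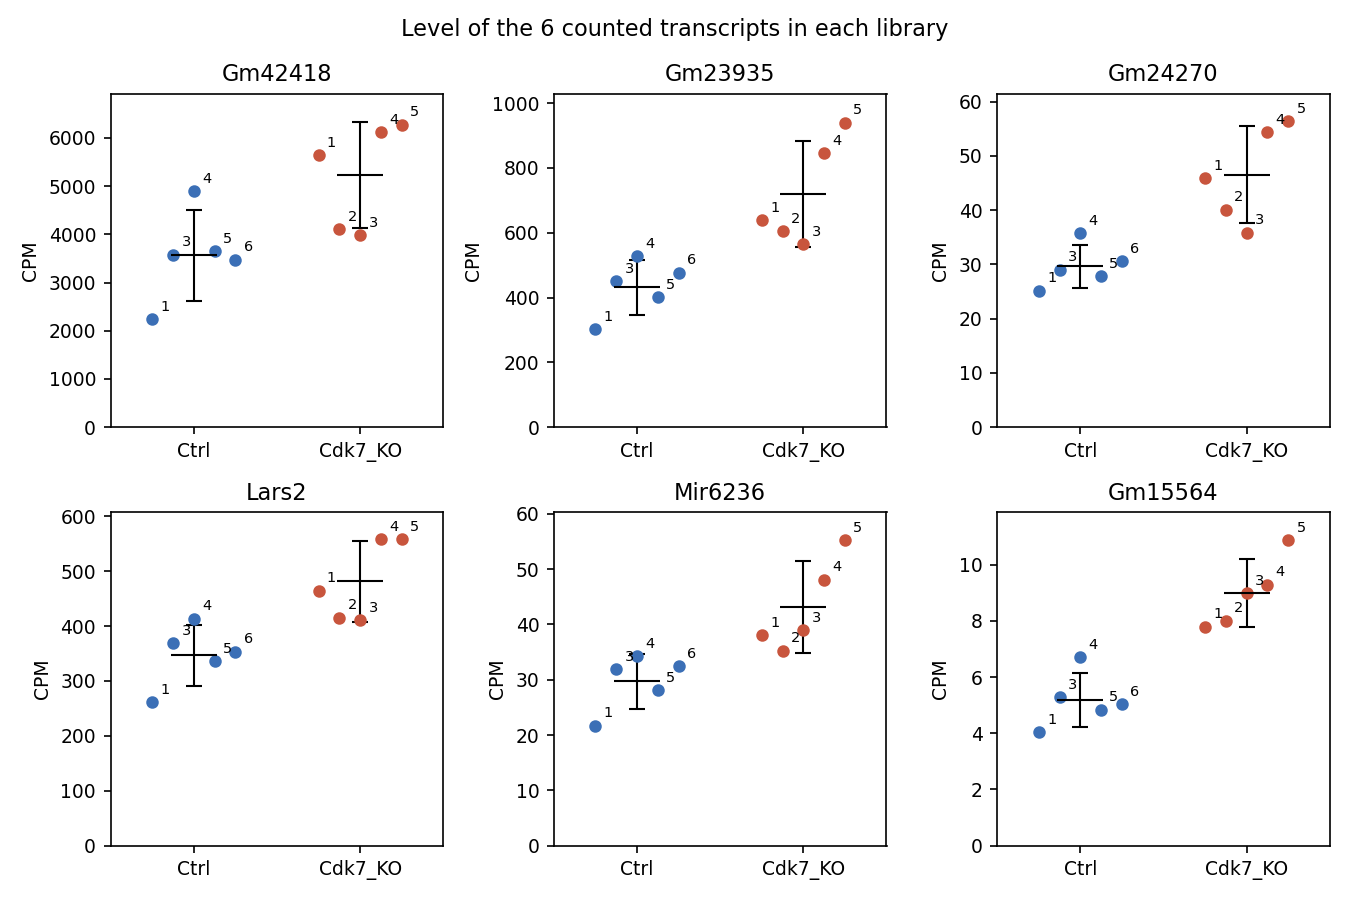
Level in CPM (linear axes from 0) of the 6 counted transcripts in each Ctrl (blue) and Cdk7_KO (red) library, numbered by replicate, with the mean and SD of each group in black. The groups overlap for Gm42418 and Lars2 and do not for the other 4 transcripts.

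The rows were chosen with this contrast known, so these differences are a description and no test is given for them. The CPM of the genotypes did not overlap for 4 of the 6 counted members, all higher in Cdk7_KO, against 0.61% of the 15578 genes tested; 2.41% did not overlap and were lower in Cdk7_KO. By edgeR's quasi-likelihood test with Benjamini-Hochberg adjustment, 0 of 15578 genes (0.0%) differed between the genotypes at an adjusted p of 0.05, whereas 2393 (15.4%) had an unadjusted p under 0.05. DESeq2 called 578 genes, of which 42 (0.258% of 16263 tested) were higher in Cdk7_KO, and edgeR with a term for the replicate sets 1 to 3 and 4 to 6 called 732, of which 46 were higher. Within libraries 1 to 3 the log2 differences of the 6 members ran from 0.49 (Lars2) to 0.85 (Gm15564), and within libraries 4 to 6 from 0.70 (Lars2) to 1.03 (Gm23935), all with Cdk7_KO higher.

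Of the genes that overlap Gm24270, Gm23935 and Gm15564, only Peak1 is on the strand of the member, while Zc3h7a, Kpna1 and Parp9 are on the opposite strand. Peak1, host of Gm24270, had a log2 difference of 0.23 (SE 0.12) from a mean of 33.5 ± 3.66 CPM over the Ctrl libraries (SD, n = 5). Zc3h7a, opposite Gm23935, had one of -0.11 (SE 0.16) from a mean of 27.0 ± 6.18 CPM over the Ctrl libraries (SD, n = 5). Kpna1, which encodes an importin alpha and overlaps Gm15564 on the opposite strand, had a log2 difference of 0.14 (SE 0.08). Parp9, the other gene on that side and a poly(ADP-ribose) polymerase family member, was at 0.617 to 3.57 CPM, with a log2 difference of -0.90 (SE 0.42).

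Whether the members vary together was examined inside the genotypes, where the contrast that chose them plays no part. With 5 libraries a genotype is too small for a correlation of its own, so the mean of each genotype was removed from the log2 CPM and the 10 deviations were joined. Libraries that were high for Gm42418 were then mostly high for the other members. Cdk7_KO 1 and Ctrl 5 were exceptions, at 0.13 and 0.05 above their genotype means for Gm42418 on the log2 scale and below them for the other 5. Gm42418 lay 0.61 below its genotype mean on the log2 scale in Ctrl 1, where Lars2, Gm23935, Gm24270, Mir6236 and Gm15564 were also lowest of their group. In Ctrl 4, which was highest for Gm42418 in its group, the other 5 also had the highest CPM of the Ctrl libraries. By deviation on the log2 scale, Mir6236 was slightly higher in Ctrl 6 (0.189) than in Ctrl 4 (0.186).

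**Figure D3:**
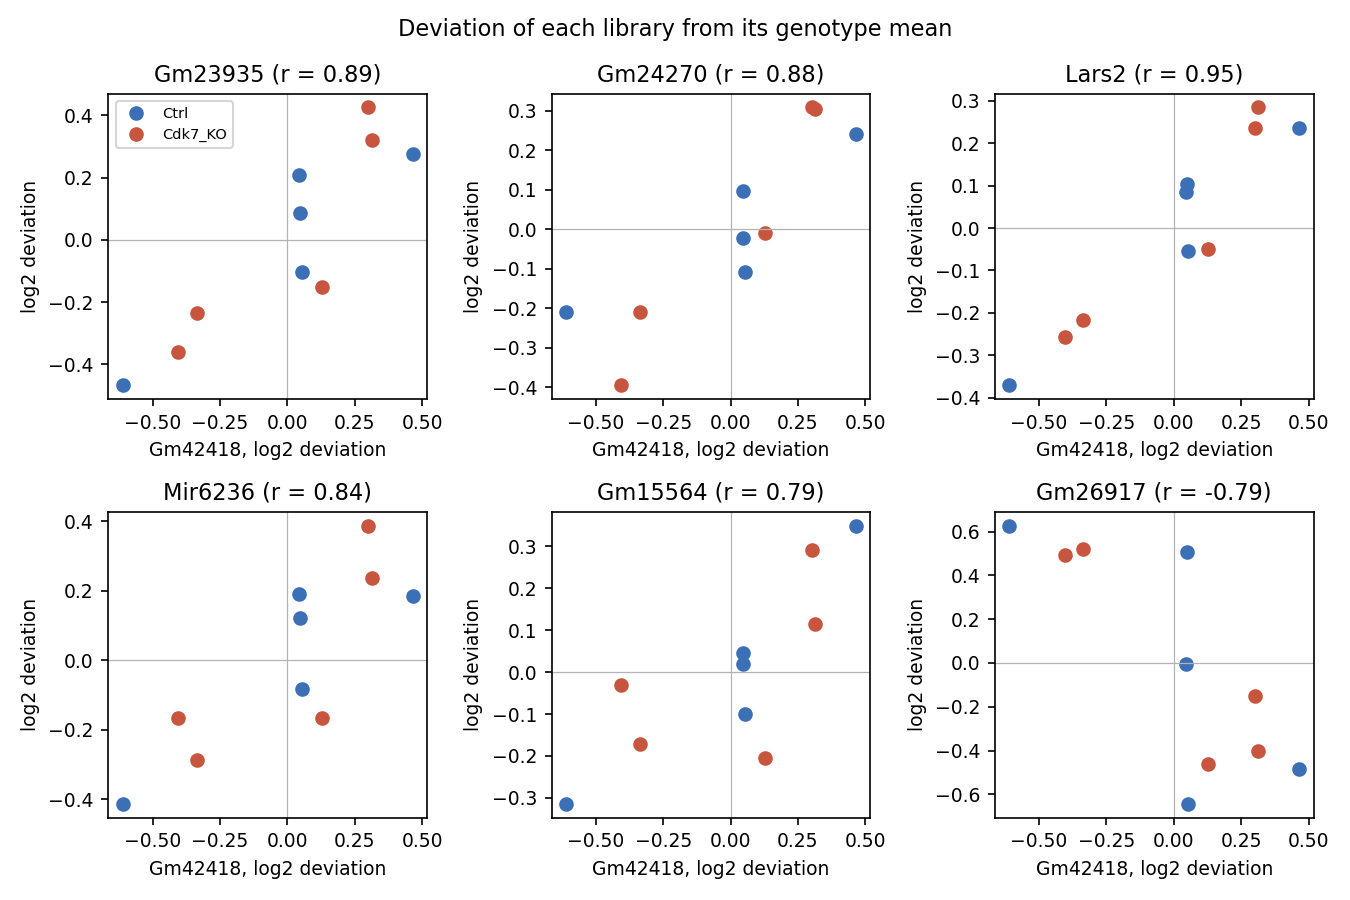
Deviation of each library from its genotype mean on the log2 CPM scale, for Gm42418 (horizontal) against 5 other members and Gm26917 (vertical), with Ctrl in blue and Cdk7_KO in red. Points of the 5 members rise with Gm42418, and those of Gm26917, its neighbour on chromosome 17, fall (r = -0.792).

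Lars2 followed Gm42418 most closely, with Pearson r = 0.949 (exact permutation of libraries inside genotypes, two-sided p = 0.000625) and Spearman rho = 0.867 over 10 libraries. It had the highest r of all 15577 other genes tested, while the lowest r, -0.957, was larger in size. Gm23935 had r = 0.895 and rho = 0.830 (exact permutation p of r = 0.00167), and 21 genes, itself included, had an r at least as high. Gm24270 had r = 0.882 and rho = 0.830 (exact permutation p of r = 0.0025), and 33 genes, itself included, reached its r. Mir6236 had r = 0.843 and rho = 0.685 (exact permutation p of r = 0.0118). Gm15564 had r = 0.788 and rho = 0.709 (exact permutation p of r = 0.0178). An r at least as high was found for 105 genes (Mir6236) and 290 genes (Gm15564), each count including the member. Adjusted over all genes, these permutation p-values were 0.195, 0.207, 0.230, 0.301 and 0.304 for the 5 members in that order. None passed, as for every gene: 0 of 15577 genes (0.0%) passed by permutation, while 2191 had an unadjusted p under 0.05. No p from 14400 permutations can be under 6.94e-05, and the smallest found by exact permutation was 0.000139. That step is coarse for adjustment over 15577 genes, so the lack of passing genes says little about the members.

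Without Ctrl 1 and Cdk7_KO 3, the libraries whose deviations of Gm42418 lay farthest from the median deviation, r was 0.885 for Lars2, 0.772 for Gm23935, 0.905 for Gm24270, 0.737 for Mir6236 and 0.785 for Gm15564. Without Ctrl 1 and Cdk7_KO 4, the farthest by the level of Gm42418 before genotype means were removed, r lay between 0.653 (Gm15564) and 0.921 (Gm24270). With the means of genotype and of the sets numbered 1 to 3 and 4 to 6 both removed, r was 0.936 for Lars2, 0.841 for Gm24270, 0.815 for Gm23935, 0.694 for Mir6236 and 0.580 for Gm15564. In that comparison 12 genes, itself included, had an r at least as high as that of Lars2. For Gm24270, Gm23935, Mir6236 and Gm15564 these counts were 129, 180, 590 and 1272 genes. Exact permutation p-values (144 permutations) were 0.0208 for Lars2, 0.0556 for Gm24270, 0.0833 for Gm23935, 0.361 for Mir6236 and 0.299 for Gm15564. Adjusted over all genes they lay between 0.629 and 0.920, but 144 permutations are too few for a p that could pass that adjustment. Over all tested genes r had a median of -0.052 and quartiles of -0.388 and 0.340.

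**Figure D4:**
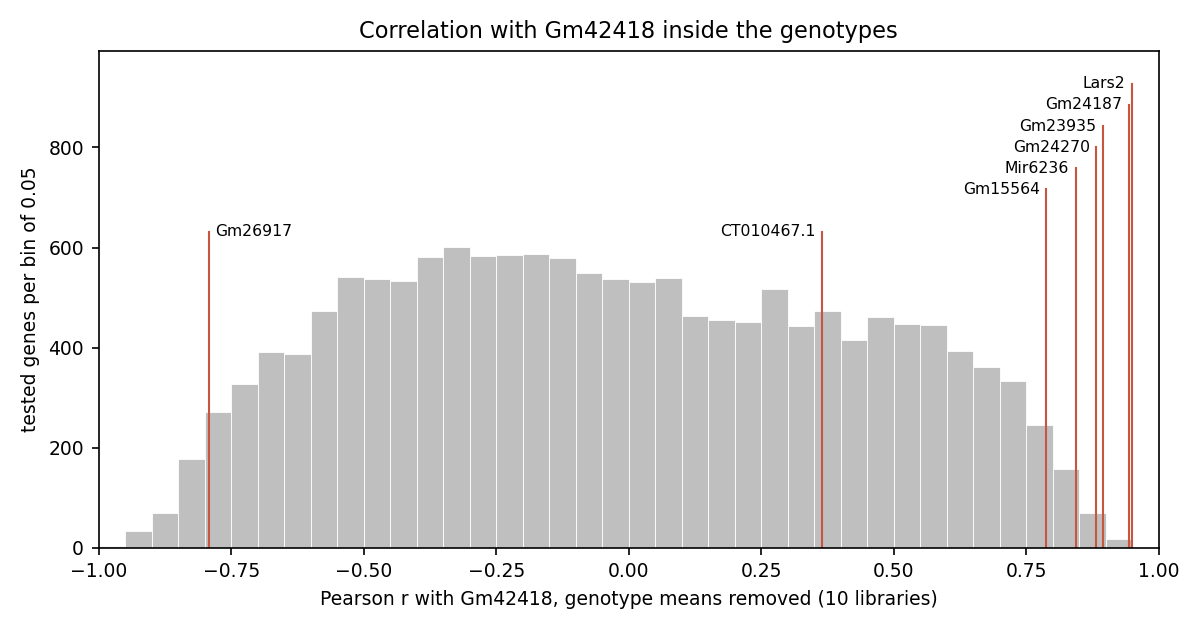
Histogram of Pearson r with Gm42418 over 15577 tested genes after genotype means were removed (10 libraries; bins of 0.05), with 5 members, the near copy Gm24187 and 2 other models of the chromosome 17 locus marked in red. The members lie at r of 0.788 to 0.949, Gm26917 at -0.792 and CT010467.1 at 0.365.

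The same relation was fitted on counts with edgeR, with genotype and the log2 CPM of Gm42418 in the model. The slope is the change of a gene on the log2 scale per unit of log2 of Gm42418, so that 1 means equal proportions. Lars2 rose with Gm42418 with a slope of 0.63 (SE 0.09, edgeR adjusted p = 0.0357), and Gm23935 with a slope of 0.80 (SE 0.13, edgeR adjusted p = 0.0451). Gm24270 had a slope of 0.61 (SE 0.13, edgeR adjusted p = 0.0733), Mir6236 0.64 (SE 0.15, edgeR adjusted p = 0.0918) and Gm15564 0.49 (SE 0.22, edgeR adjusted p = 0.307), and these 3 did not pass. Thus 2 of the 5 members passed with a slope above 0, where 5 genes in all (0.0321% of 15577) did; in either direction 39 genes (0.25%) passed. The other 3 genes were Elavl2, a neuronal RNA-binding protein, Pik3r3, a regulatory subunit of phosphoinositide 3-kinase, and Pgap1, an enzyme of GPI anchor remodelling. At an unadjusted edgeR p under 0.05 all 5 members had a slope above 0, as did 7.52% of genes, and DESeq2 called 4 of the 5 members, against 1.54% of genes with a slope above 0.

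These calls depend on single libraries. Without Ctrl 1 the adjusted p of both Lars2 and Gm23935 was 0.511, and without Cdk7_KO 3 it was 0.275. Lars2 also failed the threshold without Ctrl 4, Ctrl 5, Ctrl 6 or Cdk7_KO 4, and passed in 4 of the 10 fits with 1 library left out, while Gm23935 passed in 3 of them, those without Ctrl 3, Cdk7_KO 1 or Cdk7_KO 5. With a term for the sets of replicate numbers, the slopes were 0.58 for Lars2 and 0.61 for Gm23935 and the adjusted p was 0.994 for both. The slopes of both stayed above 0 in every fit.

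The members also followed one another when Gm42418 was left out. Over the 10 pairs among the other 5 members, r inside genotypes ran from 0.739 (Gm15564 with Gm24270) to 0.975 (Gm23935 with Lars2), and Mir6236 with Gm23935 had r = 0.971. These points share libraries and total counts, and no test is given for the pairs. With Gm23935 in place of Gm42418 as the reference, a setting chosen after the data were seen, Lars2 was the only gene that passed, with a slope of 0.73 and an edgeR adjusted p of 0.0480.

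Correlated members were not held in fixed proportions. Per 100 counts of Gm42418, Gm23935 had between 10.8 counts in Ctrl 4 (exact 95% interval 10.6 to 10.9) and 14.98 in Cdk7_KO 5 (14.8 to 15.2). Lars2 had between 8.24 in Cdk7_KO 1 (8.10 to 8.39) and 11.7 in Ctrl 1 (11.37 to 11.99). Both ranges exceeded the intervals, which cover counting error only. The log2 ratio of Gm42418 to Lars2 had an SD of 0.157 inside genotypes where counting alone gives 0.0149.

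Some pairs among the other members had a smaller spread. The log2 ratio of Mir6236 to Gm23935 had an SD of 0.0873 inside genotypes against 0.0499 from counting, and that of Mir6236 to Gm15564 an SD of 0.127 against 0.121. For the latter pair the spread was thus close to counting error. The pair with the shared stretch, Gm15564 and Lars2, had an SD of 0.131 against 0.112, and the identical models Gm23935 and Gm24270 an SD of 0.127 against 0.0489.

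Gm26917, the neighbour of Gm42418, went the other way inside genotypes, although it had a log2 difference of 0.75 (SE 0.27) between them, on the same side as the members. It was at 178, 166, 85.8, 76.0 and 113 CPM in Ctrl 1, 3, 4, 5 and 6 and at 141, 280, 281, 141 and 173 CPM in Cdk7_KO 1 to 5. Ctrl 1, the lowest library for Gm42418, was the highest Ctrl library for Gm26917, and Cdk7_KO 2 and Cdk7_KO 3 were lowest for Gm42418 and highest for Gm26917. Its r with Gm42418 was -0.792 and rho -0.782 (exact permutation p of r = 0.0136, adjusted 0.301), r was -0.651 without Ctrl 1 and Cdk7_KO 3, -0.681 without Ctrl 1 and Cdk7_KO 4, and -0.614 with the means of genotype and replicate set removed. Its slope of -1.12 (SE 0.26) did not pass (edgeR adjusted p = 0.0800). The ratio of Gm42418 to Gm26917 ran from 12.6 to 57.1 across the libraries.

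The overlapping genes Peak1, Zc3h7a, Kpna1 and Parp9 were examined in the same way. Inside genotypes Peak1 had r = 0.254 with Gm42418, Zc3h7a -0.316, Kpna1 0.417 and Parp9 -0.383. None had an edgeR slope that passed, and the adjusted p-values of the 4 slopes lay between 0.539 and 0.776.

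Lars2 was set beside the other enzymes of its family. Per kilobase of annotated exon, Lars2 was at 31.2 CPM in Ctrl, and 16 other mitochondrial aminoacyl-tRNA synthetases lay between 1.42 and 8.44 CPM per kilobase, with a median of 3.81. Lars2 was thus 8.21 times the median and 3.70 times the highest, Hars2, in Ctrl, and 12.6 times the median in Cdk7_KO. Of these 16 genes, 0 passed the edgeR test between genotypes, with 0 at an unadjusted p under 0.05, and 0 passed for the slope on Gm42418. Over all genes these shares were 0.0%, 15.4% and 0.25%, so that the counts do not set the 16 genes apart. Their median log2 difference was 0.01, and their r with Gm42418 ran from -0.510 (Vars2) to 0.407 (Pars2) with a median of -0.062. Where along the gene the Lars2 reads lie was not analysed here.

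The genes that make ribosomal RNA were examined between the genotypes, where 0.0% of all genes passed the test and 15.4% had an unadjusted p under 0.05. Of 17 measured genes of RNA polymerase I and its factors, 16 had a log2 difference above 0, with a median of 0.09, and 0 passed the edgeR test, with 0 at an unadjusted p under 0.05. Over all 15578 genes, 8173 were above 0 and the median was 0.01. Ubtf, the upstream binding factor of the ribosomal RNA promoter, had a log2 difference of 0.13 (SE 0.06), and Rrn3, which recruits the polymerase, 0.06 (SE 0.06). Of 55 genes that process or modify the precursor, 44 were above 0 with a median of 0.08, and 0 passed, with 2 at an unadjusted p under 0.05. Ncl (nucleolin) was at 0.08 (SE 0.06) and Npm1 (nucleophosmin) at 0.05 (SE 0.05).

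Inside the genotypes the median r with Gm42418 was 0.098 for the RNA polymerase I list and -0.103 for the processing list, and 0 genes of either list passed for the slope. The 2 mitochondrial ribosomal RNAs, mt-Rnr2 and mt-Rnr1, which are polyadenylated in mitochondria, had log2 differences of -0.13 (SE 0.11) and -0.14 (SE 0.13) and r of 0.347 and 0.388 with Gm42418. Of 14 small RNAs without a poly(A) tail, only Rn7sk, the RNA that holds the kinase complex P-TEFb, passed the filter on low counts. Its mean was 4.57 ± 2.43 CPM over the Ctrl libraries and 5.56 ± 1.22 CPM over those of Cdk7_KO (SD, n = 5 each), with r = 0.567.

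Of 8 long noncoding RNAs that are kept in the nucleus, 0 had a log2 difference above 0, the median was -0.43, and 0 passed the edgeR test, with 1 at an unadjusted p under 0.05, against 0.0% and 15.4% of all genes. Malat1, the most abundant of them in Ctrl, averaged 204 ± 47.5 CPM over the Ctrl libraries and 146 ± 55.7 CPM over those of Cdk7_KO (SD, n = 5 each). The r of these 8 genes with Gm42418 ran from -0.513 to -0.305.

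Among other genes that averaged 1 CPM or more, the 10 with the highest r with Gm42418 over the 10 libraries were Gm24187 (0.943), Sf3a1 (0.943), Gm5900 (0.937), Rab8b (0.932), Pik3r3 (0.931), Pdcd7 (0.930), Draxin (0.929), Pgap1 (0.924), 1700096K18Rik (0.918) and Elavl2 (0.916). Gm24187 is the near copy of Gm23935 printed above, and its slope was 1.28 (SE 0.24, edgeR adjusted p = 0.0559). Sf3a1 encodes a splicing factor, Rab8b a small GTPase of vesicle traffic and Draxin an axon guidance protein. Apart from Gm24187 and Gm5900, their log2 differences between genotypes lay between -0.04 (Pik3r3) and 0.17 (Pgap1).

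The projection neuron markers were present in all libraries, with a summed level of 1377 to 2015 CPM in Ctrl and 1624 to 2219 CPM in Cdk7_KO for 8 of 8 genes. Markers of other cells were also present, and in bulk libraries fewer cells of a type and less RNA per cell cannot be told apart. The summed level of 3 endothelial markers was 68.1 to 455 CPM in Ctrl and 17.2 to 96.4 CPM in Cdk7_KO, that of 5 astrocyte and radial glia markers 388 to 770 and 76.3 to 419 CPM, and that of 4 microglia markers 64.3 to 209 and 32.7 to 104 CPM. The 4 oligodendrocyte lineage markers summed to 191 to 691 CPM in Ctrl and 104 to 442 CPM in Cdk7_KO, the 4 interneuron markers to 44.8 to 217 and 14.5 to 154 CPM, and the 3 erythroid genes to 69.9 to 171 and 29.9 to 77.3 CPM. Every gene of these lists passed the filter on low counts.

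Inside genotypes, 10 measures of the libraries were set against Gm42418. The endothelial sum had r = -0.822 and rho = -0.794 with Gm42418 (exact permutation p of r = 0.00549, adjusted over the 10 relations 0.0549), r = -0.514 without Ctrl 1 and Cdk7_KO 3, and r = -0.568 without Ctrl 1 and Cdk7_KO 4. The oligodendrocyte lineage sum had r = 0.551, the astrocyte and radial glia sum -0.452, the projection neuron sum 0.442 and the number of genes with a count -0.438. The interneuron sum had r = 0.225, the total count 0.163, the erythroid sum -0.080 and the microglia sum 0.048. The share of counts in mitochondrial genes had r = -0.002. Apart from the endothelial sum, adjusted exact permutation p-values of r lay between 0.450 and 0.997. Xist, which separated the replicate sets and is not among these measures, had r = 0.742 and rho = 0.721 with Gm42418 inside genotypes. The exact permutation p of its r was 0.0319, and 0.324 after adjustment over all genes. The part of the 10 measures in the relation of the members to Gm42418 was not tested.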

How the data were processed

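RNA from sorted cortical projection neurons of 10 mouse pups (5 per genotype, 1 library each) was analysed from 1 deposited table of whole-number counts per gene, not normalized by the authors. Of tools, the submitters' processing notes list STAR and Salmon, and of builds GRCm38. What each tool did, its version, the strand setting and the treatment of reads that match several places were not given in the sources used here. Libraries were made, per the labels' protocols, from polyadenylated RNA with a directional kit. All 10 count columns were matched by name and 0 were left over. Total counts lay between 23497621 and 31233466. The smallest chi-square per gene between 2 libraries was 11.2, and none was counted as a duplicate.

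CPM is relative to the library total. Counts were fitted in R 4.3.3 with edgeR 4.0.16 (filterByExpr with a minimum count of 10, TMM, estimateDisp, glmQLFit, glmQLFTest), Benjamini-Hochberg adjustment and a threshold of 0.05, once with genotype alone over 15578 genes and once with genotype and the log2 CPM of Gm42418 (TMM, prior count 2) over the 15577 others. Standard errors come from the F statistic. Correlations used the same log2 CPM with genotype means removed and all 14400 permutations of libraries inside genotypes, run in Python 3.11.15. DESeq2 1.42.0, voom (limma 3.58.1), RLE factors, library totals, other filters, robust estimation, omitted libraries, the replicate number as a block, a term for replicate numbers 1 to 3 or 4 to 6 and library sizes without the members were alternatives. Pups are separate animals, so p-values measure the spread between them. Where no term for the replicate sets was used, that spread includes any difference between the sets.

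The members and gene lists were chosen with earlier results of these data known. Named genes are the members, Cdk7, the 10 other genes averaging 1 CPM or more with the highest r with Gm42418 (without Y-linked genes, Xist and Tsix), other ribosomal RNA models, and the most abundant measured genes of each list. Places and transcript sequences came from GENCODE M21, where 55480 identifiers matched and 93 did not, and synonyms from RefSeq (GRCm38.p6). The sequence of Mir6236 is not reported here. Transcripts were aligned with blastn 2.17.0. Counts were simulated for 15578 genes. The genotype fit recovered 40% of genes at a 1.5-fold change, 56% at 2-fold, 74% at 3-fold and 90% at 4-fold. For the Gm42418 fit, genes were made to change by those sizes, up or down, per unit of log2 of Gm42418. That fit recovered 8%, 36%, 72% and 62% of them.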

Additional observations from a re-analysis of the deposited data

How the results depend on the processing

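The log2 differences of the 6 counted members between the genotypes were above 0 in all 120 values under the alternatives run for them (0.45 to 1.03), which did not include DESeq2 or voom. These values reuse the same libraries or subsets of them, and the members were chosen with this contrast known. Their shared sign is thus a description and adds no support for a difference. Their slopes on Gm42418 were above 0 under the alternatives run for the fit (0.30 to 0.88), and so were the 85 correlations under alternatives (0.580 to 0.972), which covered scaling, prior count, ranks, left-out libraries and the replicate sets. Leaving out the 2 libraries farthest by deviation, and removing the means of the replicate sets, were chosen with the results in view. The side of the threshold was less steady: of 104 slopes under alternatives, 24 lost the call, 3 gained it and 77 stayed on the same side. DESeq2 gave adjusted p-values of 1.92e-05 for Lars2, 5.32e-05 for Gm23935, 0.00774 for Gm24270 and 0.0142 for Mir6236.

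The number of genes called between the genotypes, 0 with edgeR, was 578 with DESeq2, 1 without the filter, 732 with a term for replicate numbers 1 to 3 or 4 to 6, and 0 to 5 with 1 library left out (5 without Cdk7_KO 1). The number that followed Gm42418, 39 with edgeR, was 655 with DESeq2, 305 with voom, 5 with RLE factors, 2 with library totals, 222 without the filter, 0 with a mean of at least 1 CPM, 0 with the replicate-set term, 3 with the members left out of library sizes, and 1 with Gm23935 as the reference, a setting added after the data were seen. With 1 library left out it was 0 to 202: 0 without Ctrl 1, Ctrl 5, Cdk7_KO 3 or Cdk7_KO 4, 4 without Ctrl 6, 6 without Cdk7_KO 1, 7 without Ctrl 4, 165 without Cdk7_KO 5 and 202 without Ctrl 3. The causes of these shifts were not tested.

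Replicate numbers are shared by the groups, but same-numbered libraries deviated together with correlations of -0.106, 0.416, 0.154 and 0.259 for numbers 1, 3, 4 and 5. In none of these pairs was each library the best match of the other, so the numbers were not taken as pairs. With the replicate number as a block, 5 genes were called between the genotypes and 0 followed Gm42418.

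Among the members, counting error limits Gm15564 most, with at most 264 counts in a library. A single pup per library, and a reference level that is itself measured with error, limit the slopes.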

Other observations

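Of the 39 genes whose slope on Gm42418 passed the edgeR test inside the genotypes, 34 had a slope below 0. Several are known from blood vessels. Kdr, a receptor for vascular endothelial growth factor, had a slope of -2.51 (SE 0.44, edgeR adjusted p = 0.0451), and Pecam1, an adhesion molecule of endothelial cells, -2.25 (SE 0.40, edgeR adjusted p = 0.0498). Esam, an endothelial junction protein, had a slope of -2.64 (SE 0.42) and Col4a1, a collagen of basement membranes, -2.04 (SE 0.32), both with an edgeR adjusted p of 0.0451. The channel genes Kcnj8 and Abcc9, known from pericytes, had slopes of -2.73 (SE 0.46) and -2.30 (SE 0.37), both with an edgeR adjusted p of 0.0451. These genes were chosen after their values were seen. The list as a whole was not tested for a theme, and no gene followed Gm42418 at the threshold when Ctrl 1 was left out.

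Gm6166, a predicted gene, had the steepest slope of the 39, at -6.19 (SE 0.84, edgeR adjusted p = 0.0357), and averaged 4.64 CPM in Ctrl and 9.61 CPM in Cdk7_KO.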
